A study of Homo sapiens with 20 samples.

Results

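The RAB genes code for small GTPases that direct membrane traffic. Members were taken by symbol, as RAB followed by digits with an optional letter, and pseudogenes and genes named for RAB partners were left out. This gave 63 genes of the 28278 in the FUBP1 RNA immunoprecipitation (RIP) table, all of them protein coding in GENCODE release 44. Of these, 37 had at least 1 skipped exon event in the 3 junction tables, and 36 had an event that could be tested. The tables listed 91 distinct RAB events at 78 exons, of which 76 were annotated, 67 belonged to the canonical transcript of their gene, and 59 of those 67 were wholly coding. All data came from HepG2 cells, an established liver cancer line. Cells had been treated for 48 h with an siRNA against FUBP1 (siFUBP1) or its control (siCtrl2), or for 72 h with an antisense oligonucleotide against the small nucleolar RNA U3 (U3 ASO) or against GFP as the control (GFP ASO), with 3 libraries of poly(A) RNA in each group. For FUBP1 RIP and the matching input, cells had been treated for 48 h with an siRNA against the methyltransferase FBL (siFBL) or its control (siCtrl), with 2 RIP and 2 input libraries in each condition. FUBP1 is a nuclear RNA-binding protein with a role in splicing, FBL places the 2′-O-methyl group on RNA, and U3 is a C/D box RNA of the class that works with FBL. The study asked how depletion of these factors changes exon inclusion and, for FBL, which transcripts FUBP1 retains.

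A RAB protein is active on a membrane while it holds GTP and is carried back to the cytosol by a GDP dissociation inhibitor after the nucleotide is hydrolysed. Exchange factors load GTP, GTPase activating proteins speed its hydrolysis, and effectors read the active form through its switch regions. The phosphate-binding loop and switch II contact the nucleotide in all RAS-like GTPases. Hepatocytes use RAB proteins to secrete plasma proteins, to take up and recycle receptors, and to sort cargo to the bile canalicular surface.

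Depth differed between the tables, with 2693397 to 4474350 junction reads per library for siCtrl2 and siFUBP1, 11249641 to 13321799 for GFP ASO and U3 ASO, and 910779 to 1142189 for the inputs. FUBP1 itself had 45.2 to 56.1 RPM (junction reads per 1000000 junction reads of the library's table) in siCtrl2 and 4.08 to 10.1 in siFUBP1. It had 56.9 to 64.0 in GFP ASO and 38.7 to 43.4 in U3 ASO. Of 10 hepatocyte markers, 9 were listed in every table. Of 7 markers of other lineages only PECAM1 was listed, in the U3 table at up to 0.834 RPM.

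The RAB exons with the largest change lay in RAB4A, an early endosome GTPase that returns receptors to the cell surface by a fast route. The affected exons are exon 2 (chr1:229286486-229286566, 81 bases) and exon 3 (chr1:229288729-229288843, 115 bases) on the plus strand of hg38, both wholly coding. They were left out together. Exon 2 is shown because it holds the coding letters of the phosphate-binding loop, which are in capitals, and a match to the switch II motif lies in exon 3.
RAB4A exon 2: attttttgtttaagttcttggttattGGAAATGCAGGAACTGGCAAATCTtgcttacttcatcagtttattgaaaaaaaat

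The matches were found by a search for every codon spelling of the phosphate-binding loop motif (8 residues) and of the switch II motif (7 residues), in any frame. On the coding strand the first occurred in 0.612% of the 29245 distinct exons tested and in 7 of 76 RAB exons, and the second in 0.0547% and in 13 of 76. On the opposite strand they occurred in 0.246% and 0% of all exons. The match describes the letters and does not show what the shortened transcripts code for. The acceptor sites of these exons are printed next, with 27 intronic bases in lower case and the first 3 exonic bases in capitals.
RAB4A exon 2 acceptor: ttttcacagtctctttttatctttcagATT
RAB4A exon 3 acceptor: tatgctgttcttgtttttcttttttagTCA
RAB4A exon 4 acceptor: aaagtaaaaccagtataattcttccagGTC

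In the 40 bases before the exon, T made up 55.0% for exon 2 and 57.5% for exon 3, a higher share than before 90.7% and 93.9% of all exons tested. The median was 40% over all exons and 42.5% over the RAB exons of the siFUBP1 table. The 27 bases before exon 4 held 7 T, against 15 and 18 before exons 2 and 3. Such shares of T were not particular to the RAB4A exons. In the 40 bases before RAB1A exon 2 the share was 60.0%, and before RAB32 exon 2 it was 55.0%. Neither of these exons reached an adjusted p under 0.1 under siFUBP1 by the quasi-binomial test.

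Reads that joined exon 1 directly to exon 4 of RAB4A were nearly absent in siCtrl2 and frequent in siFUBP1. They numbered 0, 3 and 0 in the siCtrl2 libraries and 62, 48 and 13 in the siFUBP1 libraries. The 3 depleted libraries all lay above the 3 controls, with the third well below the other two. Inclusion reads of exon 3 were 59, 92 and 126 in siCtrl2 and 43, 71 and 40 in siFUBP1. The inclusion level, the length-scaled share of inclusion reads on a scale from 0 to 1, was 1, 0.945 and 1 in siCtrl2 and 0.281, 0.455 and 0.635 in siFUBP1, a change of -0.525. For exon 2 the inclusion reads were 18, 38 and 20 against 3, 9 and 9. Its level was 1, 0.891 and 1 against 0.0304, 0.108 and 0.31, a change of -0.814. The groups did not overlap for either exon. By the quasi-binomial test adjusted over all events of the table, exon 3 had an adjusted p of 0.000168 and exon 2 of 0.00182.

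These were the only 2 called of 46 RAB events tested in this comparison, where called means an adjusted p under 0.1 and the share called among all 16213 events was 0.154%. They are not independent, because both use the same reads from exon 1 to exon 4. The dispersion in this test came from the trend over events, and with each event's own dispersion where larger, no event was called (adjusted p = 0.866 for both exons). Exon 3 was not called without siCtrl2 library 3 (adjusted p = 0.112), and exon 2 was not called without siFUBP1 library 1 (adjusted p = 0.149).

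The 4 RAB4A events listed allowed the reads to be divided among single junctions, a step added after the values were seen, in which alternative sums differed by up to 3 reads for siFUBP1 and up to 20 in the U3 table. Reads from exon 1 to exon 2 were 16, 30 and 17 in siCtrl2 and 3, 7 and 8 in siFUBP1. The share of exon 1 to exon 4 reads was taken among reads from exon 1 to exon 2, 3 or 4. It was 0%, 8.82% and 0% in siCtrl2 and 95.4%, 87.3% and 59.1% in siFUBP1. The means were 2.94% ± 5.09 and 80.6% ± 19.0 (SD, n = 3 each), with a two-sided exact permutation p of 0.1, which is the lowest value 3 against 3 can reach. The junction between exons 2 and 3 behaved differently, with 135, 222 and 177 reads in siCtrl2 and 184, 111 and 95 in siFUBP1. In RPM this was 51.5 ± 5.99 against 40.6 ± 9.58 (SD, n = 3 each; exact permutation p = 0.3). For exon 3 to exon 4 it was 26.0 ± 13.5 against 16.3 ± 5.35 (exact permutation p = 0.4). Means for exon 1 to exon 2 were 5.94 against 2.00 RPM, and for exon 1 to exon 4 0.223 against 12.4. Far more reads joined exon 2 to exon 3 than exon 1 to exon 2 in every library, so the share at exon 1 covers only the transcripts that reach exon 1. The inclusion levels of exons 2 and 3 above likewise leave out the reads between these exons.

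**Figure D1:**
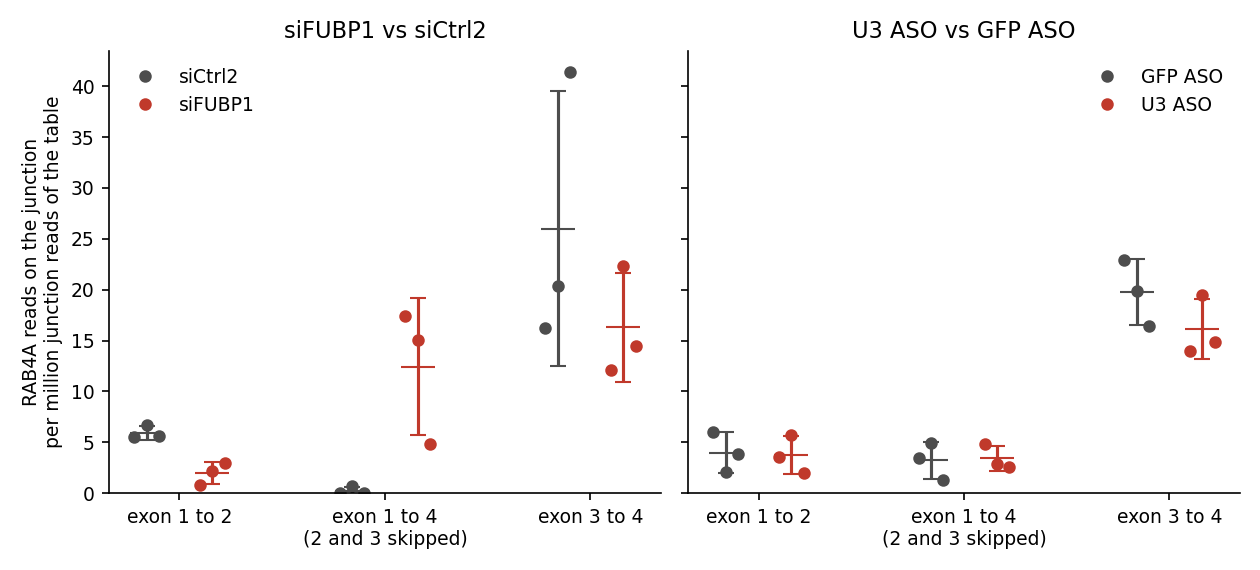
RAB4A reads in RPM on 3 junctions, by library (points) with the mean and SD (bars) of 3 libraries per group, for siFUBP1 against siCtrl2 (left) and U3 ASO against GFP ASO (right). Reads from exon 1 to exon 4 averaged 0.223 in siCtrl2 and 12.4 in siFUBP1, and 3.22 in GFP ASO and 3.41 in U3 ASO.

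The exon 1 to exon 4 junction is annotated in RAB4A transcripts, among them a protein coding one, and was also used in cells whose FUBP1 had not been targeted. In the U3 table it had 39, 60 and 17 reads in GFP ASO and 55, 33 and 34 in U3 ASO. It made up 42.5% ± 21.1 and 47.6% ± 12.8 of the reads from exon 1 to exon 2, 3 or 4 (SD, n = 3 each; exact permutation p = 0.9). Reads from exon 1 to places beyond exon 4 are not part of this share. The GFP ASO controls therefore had shares of 25% to 65.9% where the siCtrl2 controls had 0% to 8.82%. The 2 control sets differ in reagent, time, depth and library set, which cannot be told apart. Exons 2 and 3 together span 196 bases, which leaves a remainder of 1 on division by 3. RAB4A-AS1 overlaps RAB4A on the opposite strand, and the strand setting of the counting was not stated in the sources used here.

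The level of RAB4A did not pass the test under siFUBP1. Its summed junction reads were 146, 159 and 212 RPM in siCtrl2 and 164, 150.2 and 118 in siFUBP1, with overlapping groups (log2 change -0.25 ± 0.16 SE, limma adjusted p = 0.399). In the RIP table its log2 enrichment over input was 1.91 ± 0.10 (SE) in siCtrl and 1.58 ± 0.11 in siFBL (adjusted p of the difference = 0.190).

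**Figure D2:**
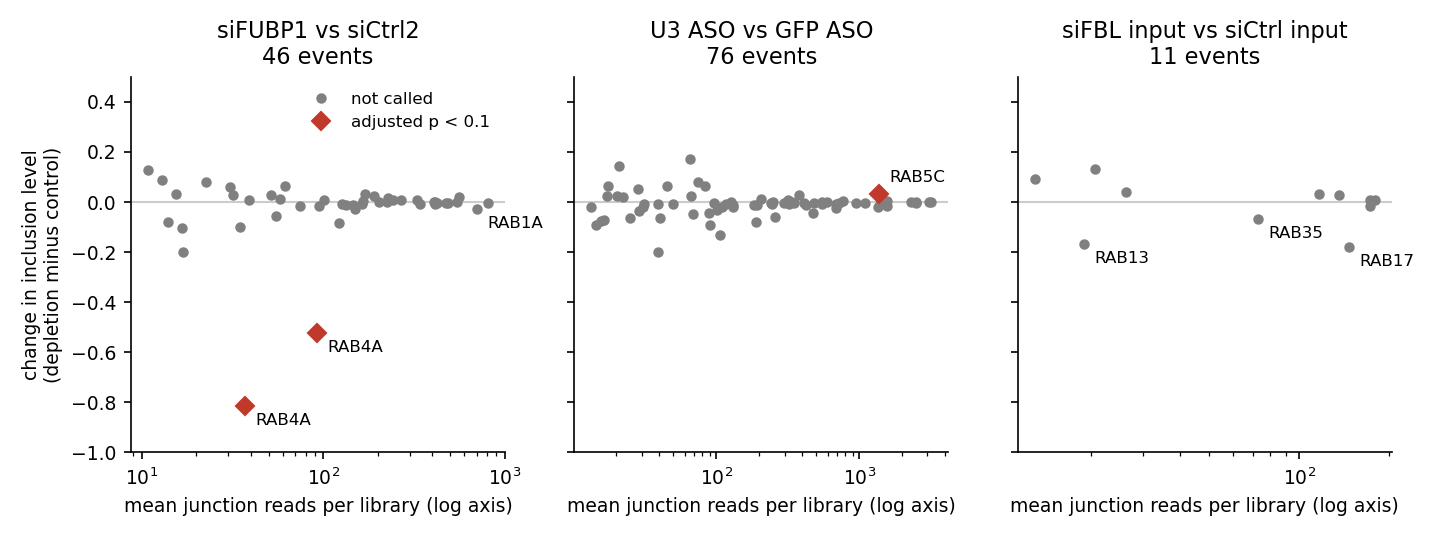
Change in inclusion level (depletion minus control) of each tested RAB event against its mean junction reads per library on a log axis, for the 3 comparisons. The 2 RAB4A events at -0.525 and -0.814 stand apart in siFUBP1, and RAB5C at +0.031 is the called event under U3 ASO.

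The remaining RAB events changed little under siFUBP1. The median absolute change was 0.0145 over RAB events and 0.0299 over all events. The RAB exons had been included almost fully in control cells, with a median level of 0.991 and 37 of 46 events (80.4%) at 0.9 or above. Over all events the median level was 0.976, with 70.4% at 0.9 or above. RAB events also had more reads, with a median of 140 per library against 60. The part of level and depth in the smaller change was not tested. Groups did not overlap at 3 of 46 RAB events, or 6.52%, against 5.05% of all events. The third of these was exon 4 of RAB1A (chr2:65090983-65091078, 96 bases, minus strand). RAB1A moves vesicles from the endoplasmic reticulum to the Golgi, and this exon, shown because it opens with the switch II letters (capitals), was fully included in every siCtrl2 library.
RAB1A exon 4: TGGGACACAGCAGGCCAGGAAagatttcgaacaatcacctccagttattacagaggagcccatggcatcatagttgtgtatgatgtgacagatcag

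Skipping reads of this exon were 0, 0 and 0 in siCtrl2 and 14, 11 and 8 in siFUBP1, beside 695, 954 and 589 inclusion reads against 765, 668 and 514. The level went from 1 in each control to 0.971, 0.974 and 0.975. The unadjusted p was 0.00595 and the adjusted p 0.796, so it was not called. In the U3 table the same event had 7, 5 and 12 skipping reads in GFP ASO and 12, 4 and 2 in U3 ASO, and in the inputs 6 and 0 in siCtrl and 0 and 0 in siFBL. No skipping junction for it is annotated.

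Among the other RAB events with the smallest p under siFUBP1, the skipping reads of several lay in 1 or 2 libraries. RAB29, a GTPase of the Golgi and lysosomes, had 8 reads skipping exons 3 and 4 together in 1 siFUBP1 library and 0 elsewhere. RAB22A, an early endosome GTPase, had 9 reads skipping exons 3 and 4 in 1 siFUBP1 library and 0 elsewhere. Exon 5 of RAB5C had 9 skipping reads in 1 siCtrl2 library only. RAB14 had 2 and 4 reads that skipped exons 2 to 5 together in 2 siFUBP1 libraries. Exon 3 of RAB22A alone, with exon 4 kept, was at 0.938, 0.93 and 0.984 in siCtrl2 and 0.748, 0.934 and 0.921 in siFUBP1, with 1 low library. The adjusted p of each of these was 0.836. Exon 2 of RAB7A, the main GTPase of late endosomes, had a level of 0.959, 0.975 and 1 in siCtrl2 and 1, 0.992 and 0.998 in siFUBP1 (adjusted p = 0.836), with overlapping groups.

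Under U3 ASO, 1 of 76 RAB events was called, against 0.186% of all 30109 events. It was an exon of RAB5C, a GTPase of early endosome fusion, at chr17:42137762-42137878 on the minus strand, of 117 bases with no coding base, present in 1 GENCODE transcript. Its acceptor has a long run of T.
RAB5C exon acceptor: tgattgtcttttttttttttgagacagAGT

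Inclusion reads were 48, 52 and 6 in GFP ASO and 131, 150 and 129 in U3 ASO. The level was 0.0299, 0.0238 and 0.00282 against 0.055, 0.0551 and 0.0392, a rise of 0.031 on a low level with no overlap (quasi-binomial test, adjusted p = 0.0636). The third GFP ASO library lay far below the other two. The call was lost without GFP ASO library 2 (adjusted p = 0.136) or 3 (0.937), without U3 ASO library 1 (0.323) or 2 (0.556), and with the event's own dispersion, which was 16.8 against the 6.74 used (0.895). In the siFUBP1 table the same exon was at 0.0382, 0.0351 and 0.0383 in siCtrl2 and 0.0489, 0.0132 and 0.0298 in siFUBP1, and in the inputs at 0.026 and 0.0284 in siCtrl and 0 and 0.0693 in siFBL.

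Other RAB exons under U3 ASO missed the threshold, each at an adjusted p of 0.868. Reads that skipped exons 4 and 5 of RAB1A together were 0, 0 and 1 in GFP ASO and 27, 12 and 12 in U3 ASO, and this junction is annotated in a protein coding transcript. Exon 4 of RAB14, an early endosome and Golgi GTPase, had 0, 0 and 0 skipping reads in GFP ASO and 3, 18 and 4 in U3 ASO. Exon 4 of RAB4B, the close relative of RAB4A, had 0, 0 and 1 against 4, 10 and 8, and its level was 1, 1 and 0.952 against 0.857, 0.722 and 0.774. Exon 3 of RAB22A was at 1, 0.972 and 0.927 against 0.893, 0.862 and 0.909. Exon 4 of RAB7A had 20 skipping reads in 1 GFP ASO library and exon 4 of RAB4A 21 in another, with 0 in the other five libraries for each. Exon 2 of RAB7A was at 0.972, 1 and 0.995 against 1, 0.998 and 0.998, with overlap. Exon 4 of RAB28, a ciliary GTPase, was at 0.69, 1 and 0.792 against 1, 1 and 1, with overlap. Groups did not overlap at 6 of 76 RAB events, or 7.89%, against 6.03% of all events, and these were both RAB1A exons and the events of RAB5C, RAB14, RAB4B and RAB22A just given.

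RAB6A, which acts in retrograde transport at the Golgi, has a pair of exons that replace each other. The U3 table listed them as 2 events with the same neighbours, and they were described after their values had been seen. Both are 106 bases long, lie on the minus strand of chromosome 11, and differ at 31 bases, which are in capitals.
RAB6A exon, chr11:73718613-73718718: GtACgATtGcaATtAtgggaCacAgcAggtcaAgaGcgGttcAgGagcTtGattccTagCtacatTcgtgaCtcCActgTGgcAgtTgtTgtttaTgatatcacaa
RAB6A exon, chr11:73718785-73718890: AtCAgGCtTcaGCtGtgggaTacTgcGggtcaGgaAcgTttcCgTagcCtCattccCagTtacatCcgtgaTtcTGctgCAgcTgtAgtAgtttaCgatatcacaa

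Reads that skipped both exons numbered 1, 0 and 0 in GFP ASO and 0, 0 and 0 in U3 ASO. The first exon, the canonical one, took 460, 568 and 684 inclusion reads in GFP ASO and 537, 522 and 497 in U3 ASO. The second took 691, 528 and 678 against 482, 589 and 598. The first thus held 39.97%, 51.8% and 50.2% of the inclusion reads in GFP ASO and 52.7%, 47.0% and 45.4% in U3 ASO, with means of 47.3% ± 6.43 and 48.4% ± 3.84 (SD, n = 3 each; exact permutation p = 0.8). Both forms were used at similar levels in these cells, and an effect of U3 depletion on the choice was not detectable. The inclusion level of each event, close to 1, does not show this choice. Reads may also come from the near-identical RAB6C and RAB6D, so the split is uncertain to that extent.

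In the inputs after siFBL, none of the 11 RAB events tested was called by the quasi-binomial test or by limma, as was the case for all 5208 events (0%), and no RAB event had an unadjusted p under 0.05. Groups did not overlap at 1 RAB event, or 9.09%, against 13.8% of all events. This was exon 3 of RAB17 (chr2:237578004-237578155, minus strand), a GTPase of epithelial transport to the apical surface. Its inclusion reads were 229 and 144 in siCtrl and 74 and 106 in siFBL, its skipping reads 8 and 0 against 9 and 16, and its level 0.935 and 1 against 0.804 and 0.768 (adjusted p = 0.898). The depth of these libraries limits any statement on single exons. RAB13, which works at tight junctions, had 5 skipping reads at exon 4 in 1 siFBL library, and RAB35, a GTPase of recycling, had 5 at exon 5 in 1 siFBL library, with 0 in the others. For RAB32 exon 2, RAB22A exon 4 and both RAB1A exons among the smallest p, skipping reads lay in 1 siCtrl library each. The same held for reads that skipped RAB29 exons 3 and 4 together, and all these events had 2 to 6 such reads. Skipping reads of RAB5C exon 5 lay in 1 siFBL library, with 3. The RAB15 exon had 2 inclusion reads in 1 siFBL library and 0 elsewhere (quasi-binomial test, adjusted p = 0.898 for each of these events).

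Events tested in all 3 tables show how RAB exons were used in the separate control sets. Exon 3 of RAB17 was partly skipped in each, with mean control levels of 0.830 in siCtrl2, 0.908 in GFP ASO and 0.967 in the siCtrl inputs, and its skipping junction is annotated in a transcript subject to nonsense-mediated decay. Exon 4 of RAB29 was measured against reads that skip exons 3 and 4 together. Its mean level was 1, 0.836 and 0.868 in the same order, and this skipping junction is annotated in such a transcript as well. The exon of RAB15, which acts in recycling, at chr14:64957940-64958159 was used rarely, at 0.00585, 0.085 and 0. Exon 4 of RAB13 was at 0.987, 1 and 1. Exon 2 of RAB32, a GTPase of lysosome-related organelles, was at 1, 0.996 and 0.970. Exon 5 of RAB35 was at 0.926, 0.980 and 1, exon 4 of RAB22A at 0.998, 1 and 0.910, and exon 5 of RAB5C at 0.990, 0.998 and 1. Over the 91 RAB events, the skipping junction was annotated for 42, in a protein coding transcript for 34 and only in nonsense-mediated decay transcripts for 6. Of the 67 canonical exons, 20 had a length divisible by 3. Exon 2 of RAB9A, a late endosome GTPase, lies before the coding part and varied widely between libraries. Its level was 0.715, 0.954 and 0.334 in siCtrl2 and 0.622, 0.556 and 0.904 in siFUBP1 (adjusted p = 0.849), and 1, 1 and 0.611 in GFP ASO and 0.848, 0.836 and 0.527 in U3 ASO (adjusted p = 0.868).

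Levels of spliced RAB transcripts were read from the junction reads of their listed events, in RPM, and log2 changes are on the scale of log2(RPM + 1). Only genes with an event are measured, and reads shared by overlapping events count more than once. Under siFUBP1, 3 of 25 RAB genes were called by limma, against 12.4% of all 6432 genes. RAB7A rose from 116, 115 and 100.2 RPM in siCtrl2 to 231, 228 and 249 in siFUBP1, a log2 change of 1.09 ± 0.13 (SE, adjusted p = 3.55e-05). RAB2B, which works between the endoplasmic reticulum and the Golgi, fell from 71.5, 91.2 and 64.4 to 42.96, 44.9 and 19.7, a change of -1.13 ± 0.27 (adjusted p = 0.0138). RAB6A rose from 142, 135 and 152 to 188, 215 and 172, a change of 0.42 ± 0.14 (adjusted p = 0.0667). The groups did not overlap for these 3 genes. The level of RAB7A rests on 1 event at exon 2, and that of RAB2B on 3.

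The 3 RAB genes with the most reads, RAB1A, RAB10 and RAB5C, did not pass the test. RAB1A had a mean of 717 RPM (SD 68.6) in siCtrl2 and 721 RPM (SD 58.3) in siFUBP1, with 3 libraries in each. RAB10, which carries vesicles to the plasma membrane, had 297 ± 5.38 and 328 ± 56.3, and RAB5C had 232 ± 14.1 and 210.0 ± 18.6. RAB15 was at 6.90, 6.48 and 9.53 against 16.3, 18.2 and 15.2, without overlap, but had an adjusted p of 0.127. The median log2 change was 0.01 over RAB genes and -0.05 over all genes.

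Under U3 ASO most RAB genes had more junction reads, as did most genes. All 21 called of 33 RAB genes were higher, where 47.4% of all 8548 genes were called, 37.0% higher and 10.4% lower. The median log2 change was 0.40 over RAB genes and 0.26 over all genes. Relative to the median of all genes 13 RAB genes were called, 10 higher and 3 lower, where 37.9% of all genes were called, 18.5% higher and 19.4% lower, and the RAB median was 0.16. The counts per direction therefore depend on the scaling, and values below are relative to that median.

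RAB10 went from 138, 140 and 164 RPM in GFP ASO to 249, 255 and 278 in U3 ASO (relative log2 change 0.58 ± 0.09 SE, limma adjusted p = 3.15e-05). RAB7A went from 196, 179 and 168 to 312, 293 and 286 (0.47 ± 0.08, adjusted p = 0.000118). RAB17 went from 30.6, 22.8 and 22.2 to 54.7, 50.7 and 55.1 (0.83 ± 0.16, adjusted p = 0.000533). Each of these 3 rose without overlap. RAB5C rose by 0.28 ± 0.06 (adjusted p = 0.00178) and RAB32 by 0.38 ± 0.10 (adjusted p = 0.00687).

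The largest relative changes were at genes with fewer reads than those above. RAB27A, which acts in exocytosis of lysosome-related organelles, had 0.711, 0.572 and 4.40 RPM in GFP ASO and 5.67, 7.02 and 5.40 in U3 ASO (1.28 ± 0.44, adjusted p = 0.0309). RAB31, a GTPase between the Golgi and endosomes, had 3.29, 3.51 and 3.94 against 9.38, 15.2 and 10.1 (1.19 ± 0.30, adjusted p = 0.00491). RAB29, summed over 6 events, had 5.42, 18.6 and 17.1 against 41.3, 26.9 and 33.4 (1.15 ± 0.32, adjusted p = 0.00866). Its first GFP ASO library lay far below the others. RAB43, of the Golgi, rose by 0.85 ± 0.30 (adjusted p = 0.0332). RAB22A was the other called gene, at 0.50 ± 0.20.

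The 3 genes called lower relative to the median were RAB4A (-0.40 ± 0.12, adjusted p = 0.0153), RAB6A (-0.33 ± 0.10, adjusted p = 0.0145) and RAB8A (-0.31 ± 0.10, adjusted p = 0.0183). RAB8A carries secretory vesicles to the plasma membrane. Without the centring their changes were -0.16, -0.09 and -0.08 and did not pass the test, and their reads overlapped between the groups. RAB1A, with the most reads of any RAB gene, was at 995 ± 22.1 in GFP ASO and 1214 ± 5.02 in U3 ASO, a called change without centring (0.29 ± 0.05, adjusted p = 8.86e-05) and 0.05 ± 0.05 relative to the median (adjusted p = 0.503). By known site of action, 4 of 6 late endosome and lysosome genes were called higher relative to the median (RAB7A, RAB27A, RAB29 and RAB32), 3 of 9 early endosome genes, 2 of 7 recycling genes and 1 of 7 endoplasmic reticulum and Golgi genes, beside 18.5% of all genes. Each of the last 3 groups also had 1 gene called lower, beside 19.4% of all genes, and of the other 4 genes none was called.

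**Figure D3:**
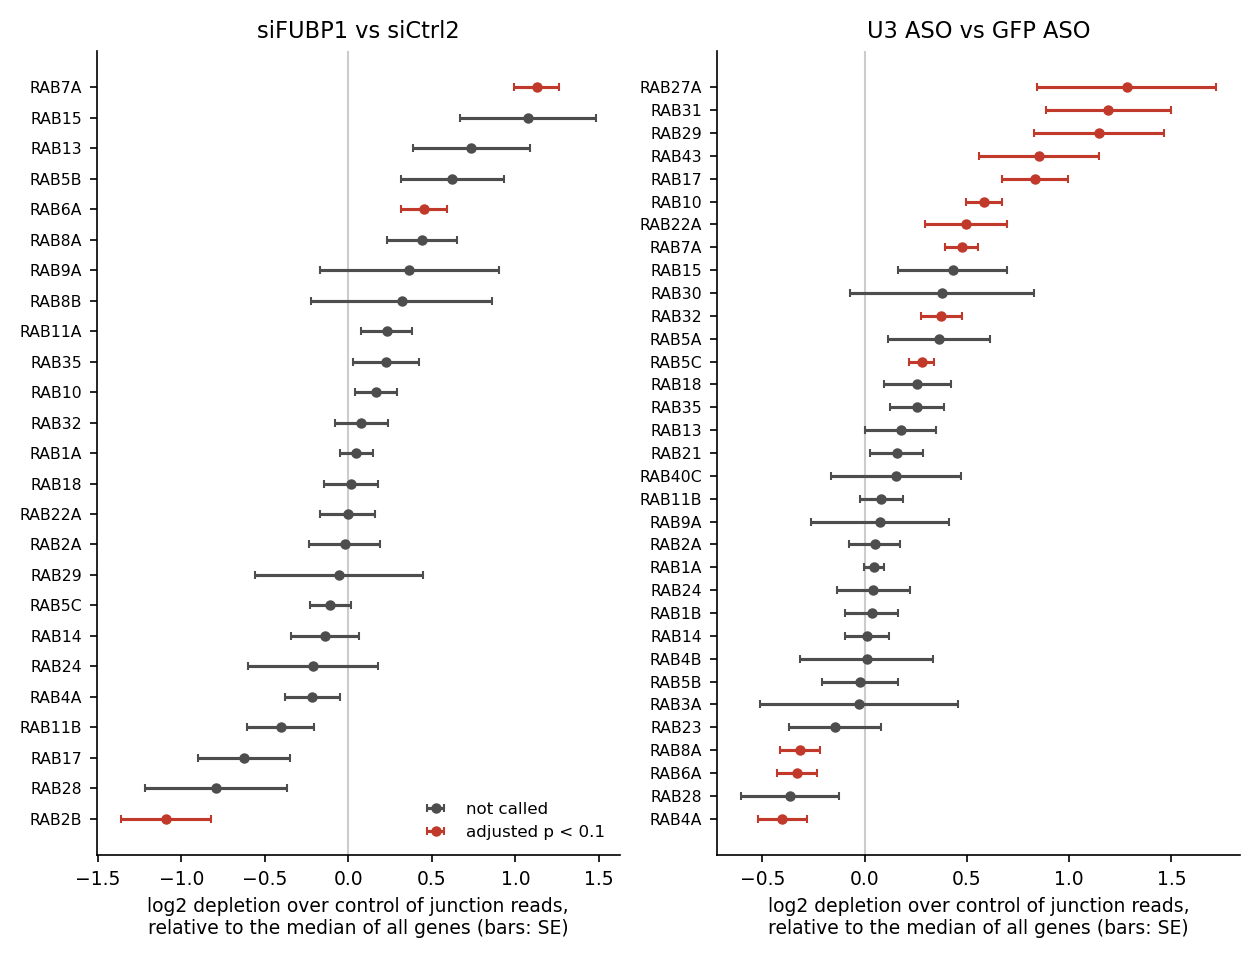
Log2 change of summed junction reads of each RAB gene relative to the median of all genes, with SE, for siFUBP1 against siCtrl2 (25 genes) and U3 ASO against GFP ASO (33 genes). RAB7A is at 1.13 and RAB2B at -1.09 under siFUBP1, and 10 genes are called higher and 3 lower under U3 ASO.

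In the siFBL inputs, 9 RAB genes were measured and 1 was called, against 3.73% of all 3217 genes. RAB32 fell from 158.5 and 174.6 RPM in siCtrl to 67.3 and 60.8 in siFBL (log2 change -1.37 ± 0.39 SE, limma adjusted p = 0.0632). Relative to the median of all genes, which fell by 0.19, its adjusted p was 0.132. Without any 1 of the 4 libraries it was between 0.161 and 0.338. RAB5C was at 300.3 and 247 in siCtrl and 444 and 391 in siFBL, a relative change of 0.79 ± 0.24 (adjusted p = 0.0904), and was called only on that scale, where 3.08% of all genes were.

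FUBP1 RIP recovered RAB transcripts very unequally. Of 51 RAB genes tested, 26 had a log2 enrichment over input above 1 in siCtrl and 17 one below -1, against 35.7% and 35.2% of all 14242 genes. The RAB median was 1.57 and that of all genes 0.08. Each enrichment comes from a fit of 2 RIP and 2 input libraries pooled by the authors, so values per library cannot be given. The other 12 RAB genes were below the minimum mean count of 10 in a condition, among them RAB25, RAB38 and RAB27B. RAB4B was listed at 0, although it had a mean of 56.3 junction reads per library in the U3 table. Exons of several RAB genes overlap another gene on the same strand, among them RAB4B, RAB43 and RAB24. An effect of such overlaps on the counts was not tested.

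RAB genes of the endoplasmic reticulum and Golgi had a median enrichment of 2.60, with 9 of 11 above 1. RAB18, which acts at the endoplasmic reticulum and lipid droplets, was at 3.56 ± 0.12 (SE), RAB30 at 3.41 ± 0.26 and RAB1A at 2.89 ± 0.07, whereas RAB1B and RAB43 were at -3.31 ± 0.22 and -3.03 ± 0.27. Early endosome genes had a median of 1.69, with RAB21 at 3.39 ± 0.07 and RAB14 at 2.99 ± 0.07. Late endosome genes had a median of 0.02, and those whose mean count reached 50 ranged from RAB12 at 3.18 ± 0.14 to RAB32 at -2.70 ± 0.23. Recycling genes had a median of -1.44, from RAB10 at 2.56 ± 0.06 to RAB13 at -2.30 ± 0.26. Of the 5 regulated secretion genes, none was above 1 and 4 were below -1. Among those 4, RAB3A, RAB26 and RAB37 had a mean count under 50. The ciliary RAB28 had the highest value of those RAB genes whose mean count reached 50, at 3.58 ± 0.34. RAB15, RAB40C, RAB3D and RAB24 were also among the lowest, at -2.13 ± 0.19, -2.09 ± 0.22, -1.86 ± 0.49 and -1.84 ± 0.24.

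**Figure D4:**
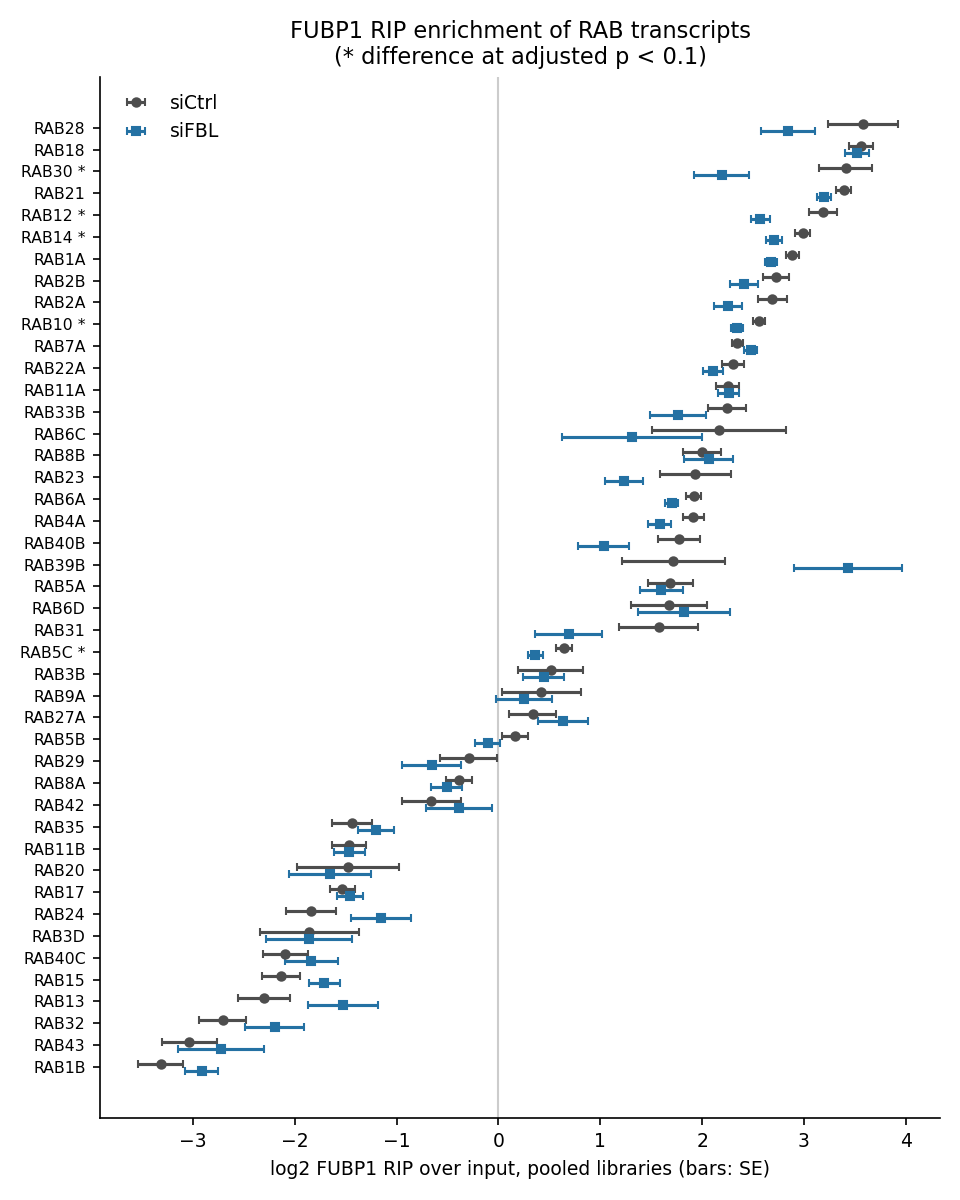
Log2 enrichment of FUBP1 RIP over input with SE for the 44 RAB genes whose mean normalized count reached 50, in siCtrl (circles) and siFBL (squares), ordered by siCtrl. Values run from 3.58 for RAB28 to -3.31 for RAB1B in siCtrl, and stars mark the 5 genes called for the difference.

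Some close relatives differed widely and others were alike, a comparison made after the values were seen. RAB1A and RAB1B differed by 6.20 ± 0.23 (SE) on the log2 scale, RAB40B and RAB40C by 3.86 ± 0.30, RAB11A and RAB11B by 3.72 ± 0.20, RAB8B and RAB8A by 2.38 ± 0.23, and RAB3B and RAB3D by 2.37 ± 0.58. RAB5A and RAB5B differed by 1.52 ± 0.25. RAB2A and RAB2B were alike within their errors, at 2.69 ± 0.14 and 2.73 ± 0.13. RAB6A, RAB6C and RAB6D were close as well, at 1.92 ± 0.08, 2.17 ± 0.65 and 1.68 ± 0.38. The canonical transcript of RAB1A had a GC content of 38.2% and that of RAB1B 60.4%, and for RAB11A and RAB11B it was 37.0% and 63.1%. In 6 of 8 families the most enriched member had a lower GC content than the least enriched one, the exceptions being the families of RAB2 and RAB6. Within the RAB5 family, RAB5C had a higher GC content than RAB5B (56.2% and 46.1%) and also a higher enrichment (0.64 and 0.16).

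Across the 44 RAB genes the enrichment fell with GC content, with a Spearman correlation of -0.771, and across 11578 genes of all kinds it was -0.804. These are descriptions across genes that share libraries, and base composition also affects library preparation, whose part in the relation was not tested. GC content was 1 of 6 features examined, and the correlations over RAB genes were 0.412 with transcript length, 0.387 with 3′ UTR length, 0.465 with intron length, 0.0469 with coding length and 0.474 with mean count.

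**Figure D5:**
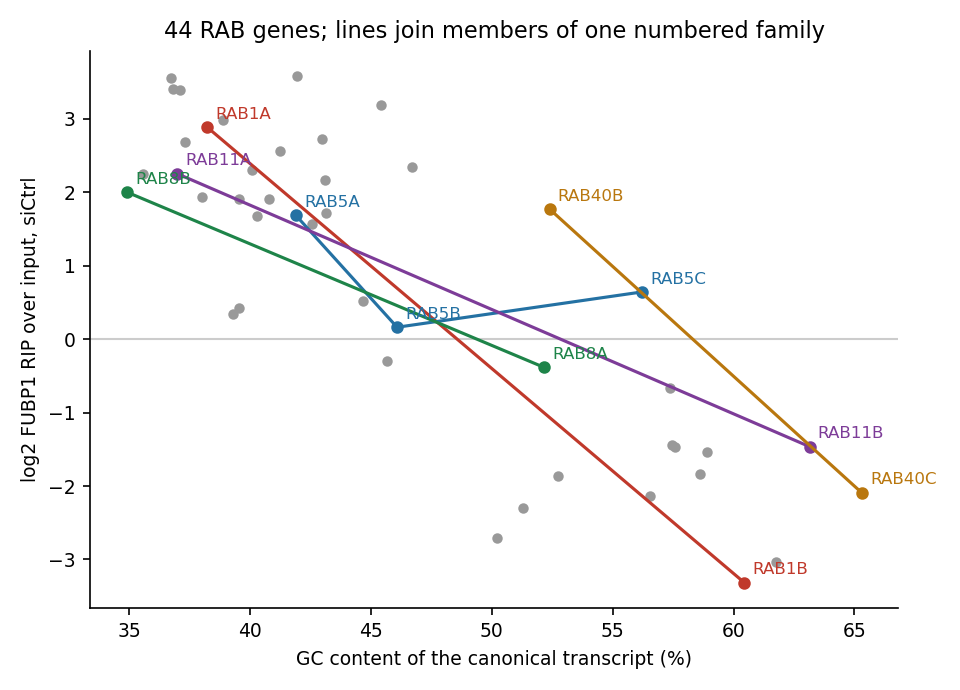
Log2 enrichment of FUBP1 RIP over input in siCtrl against the GC content of the canonical transcript for 44 RAB genes, with lines joining members of 5 numbered families. RAB1A (38.2% GC) is at 2.89 and RAB1B (60.4% GC) at -3.31.

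After FBL depletion, 5 of 51 RAB genes were called for a difference in enrichment and all 5 were lower, where 12.0% of all genes were called, 6.64% lower and 5.36% higher. RAB12 fell from 3.18 ± 0.14 to 2.57 ± 0.09 (difference -0.61 ± 0.16 SE, adjusted p = 0.00432, normal approximation across all genes). RAB30 fell from 3.41 ± 0.26 to 2.19 ± 0.27 (difference -1.22 ± 0.38, adjusted p = 0.0178). RAB14, RAB10 and RAB5C fell by 0.28, 0.21 and 0.28 (adjusted p = 0.0831, 0.0886 and 0.063). RAB39B, a Golgi GTPase, was higher by 1.71 ± 0.73 without passing the test (adjusted p = 0.139), and RAB1A and RAB40B were lower by 0.21 and 0.74 without passing it (adjusted p = 0.138 and 0.156).

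The median difference was -0.18 over RAB genes and -0.00249 over all genes. Of the 26 RAB genes with an enrichment above 1 in siCtrl 21 were lower in siFBL, and of the 17 below -1 12 were higher. The siCtrl value both selects these genes and is subtracted in the difference, so the 2 quantities are not independent. Error in that value alone favours these directions, and no conclusion is drawn from the counts. The ratio of difference to error had an SD of 1.76 over all genes, where the normal approximation gives 1 in the absence of any change. Whether real changes or errors that are too small widen it was not tested, and in the second case these p-values are too small. With no filter on the mean count, 3 genes were called, without RAB10 and RAB14.

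Genes that act on RAB proteins were looked at by class. In RIP, 7 genes of prenylation and membrane cycling, 37 exchange factors, 35 GTPase activating proteins and 40 effectors were tested. Called lower in siFBL was CHML, an escort protein for prenylation. Among those called higher were the exchange factor SBF1, the activating protein TBC1D10B and 5 effectors, and 1 effector was called lower. Of all genes, 6.64% were called lower and 5.36% higher. No skipped exon event of these classes was called by the quasi-binomial test in any comparison. Of all events, 0.154% were called under siFUBP1, 0.186% under U3 ASO and 0% in the siFBL inputs. Under siFUBP1 the classes held 11, 78, 57 and 66 tested events in the same order, with 0, 3, 1 and 3 at an unadjusted p under 0.05. The share over all 16213 events was 3.57%, and no conclusion on the classes is drawn from these counts.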

How the data were processed

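Junction reads and FUBP1 RIP enrichments of HepG2 cells were analysed from 3 tables of skipped exon events and 1 RIP table. Per the labels and the study's methods, the authors trimmed reads with Cutadapt, aligned them to hg38 with HISAT2 and counted inclusion and skipping junction reads per event with rMATS. The deposited counts are whole numbers without normalization, 1 per library in a list whose positions carry no replicate number, so libraries are named by position. The deposited log2 fold change of RIP over input and its standard error were computed by the authors with DESeq2 in each condition, from reads counted per gene (HTSeq in the methods, featureCounts in the processing notes), and the deposited mean normalized count was used as a score only. Effective lengths of both forms, deposited with each event, entered as a length (other). The authors' p-value and FDR columns were not used, nor were 6 columns of inclusion level per library, since levels were computed from the reads. Tool versions are not given in the sources used here. No molecular identifiers are mentioned, so reads are not independent molecules. By the study's methods the RNA-seq libraries were biological replicates, as were the 2 cell harvests per condition behind the RIP and input libraries.

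The change in inclusion was tested by a quasi-binomial model with an F test, in which limma 3.58.1 moderated the dispersion (squeezeVar, trend on the rank of the information, which is the reads per library times both shares, prior from information of at least 5), in R 4.3.3. Events with a mean of at least 10 reads per library were tested, with Benjamini-Hochberg adjustment over all of a table. The plan left the dispersion formula open. Of 16 forms run per table, which called 22 to 32, 49 to 68 and 0 events (2, 0 to 1 and 0 RAB events), the deviance form was kept after these calls had been seen, because its counts matched earlier work. The prior degrees of freedom were infinite, so an event's own spread does not enter its p-value. Levels used limma with a trend on log2(RPM + 1) for genes with at least 10 reads. RIP differences were divided by the root of the summed squared errors and tested by a normal approximation, where the mean count was 10 or more in both conditions and an enrichment not listed as exactly 0. Tests were run on simulated data first. Python 3.11.15 with scipy 1.17.1 gave exact permutation tests. Annotation and exon positions came from GENCODE 44 and sequences from the hg38 genome, and 96.872% of tested events matched an annotated exon. Coordinates count from 1.

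Named events were those called, the 10 with the smallest p per comparison, those tested in all tables and those with a control level of 0.1 to 0.9 and at least 50 reads. Named genes were called ones, those with the most reads, and for RIP the 8 highest, the 8 lowest and the 8 with the largest difference relative to error. Members, lists and tests were chosen with earlier results of these data known. Tables were normalized separately, and no test runs across them. Some items are not reported here.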

Additional observations from a re-analysis of the deposited data

How the results depend on the processing

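No paired analysis was possible because the positions in the read lists carry no replicate number and the RIP values are pooled. For the same reason the RIP enrichments could not be recomputed without a library. The 2 RAB events called under siFUBP1 became 1 by limma on the log2 odds of inclusion, without or with a variance trend, and 0 with 0.1 in place of 0.5 added to each count or, added after seeing the data, with the event's own dispersion. The 1 event called under U3 ASO became 0 by each limma form, by a trend on mean reads and with its own dispersion. Over all events these forms called 3 to 8 under siFUBP1 and 0 under U3 ASO for limma, 45 under U3 ASO for the trend on mean reads, and 0 in every table with the own dispersion. Without 1 library, RAB calls ran from 1 to 2 under siFUBP1 and from 0 to 1 under U3 ASO, and the 1 level called in the siFBL inputs became 0. Centring took the 21 levels called under U3 ASO to 13, and dropping the filter on mean count took the RIP calls from 5 to 3. In the leave-one-out fits the level of RAB1A under siFUBP1 ranged from -0.0713 to 0.0747 and that of RAB35 in the siFBL inputs from -0.92 to 1.39 on the log2 scale, so their signs turned. RAB6A under siFUBP1 was not called in 4 of its 6 such fits. Over all values of single events and genes under these alternatives, 681 kept their direction and their side of the threshold, 35 kept their direction but were no longer called, 1 was newly called and 4 changed sign. The causes of these changes were not tested. Depth limits single events most in the inputs, which had the fewest junction reads.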
